A study of Mus musculus with 6 samples.

Results

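The genes described are 313 expressed mouse zinc finger genes whose symbol is Zfp followed by a number, compared between wild type neural stem cells and cells lacking Smchd1. They were selected on a measured value, a mean CPM (counts per M counts of the library) of at least 2 over all 6 libraries. Of 363 genes named in that way among 27179 gene records, 46 were below the threshold. Another 4, Zfp992, Zfp993, Zfp991 and Zfp979, were left out by name although they passed it. The members just inside the threshold were Zfp677, Zfp964 and Zfp456, at mean CPM of 2.12, 2.17 and 2.20. Just outside it were Zfp580, Zfp784 and Zfp947, at 1.74, 1.73 and 1.58. All 313 members passed the filter on low counts of the test, among 14207 tested genes.

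Most proteins with this kind of name carry arrays of Cys2His2 zinc fingers, each of which can contact a few bases of DNA. In the largest mammalian family of them, an amino-terminal KRAB domain recruits the corepressor Trim28 (KAP1), which brings the histone methyltransferase Setdb1 and heterochromatin proteins to target sites such as retroelements and imprinted loci. Smchd1 is a noncanonical SMC protein known for silencing on the inactive X chromosome, at some imprinted genes and at some gene clusters.

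The 3 wild type libraries (Smchd1 wild-type) and the 3 null libraries (genotype Smchd1 MommeD1/MommeD1) came from male neural stem cells derived from E14.5 mouse embryo brain, strain C57BL/6 x FVB/N. The culture medium of both groups held 20 ng/ml of EGF and as much bFGF. RNA was sequenced from an unstranded poly(A) kit, so a gene and an overlapping antisense gene could not be told apart. The labels do not say whether replicates came from separate embryos, so p-values rest on a spread between samples that could be technical alone. In bulk RNA, a change in the make-up of a culture and a change of RNA per cell cannot be told apart.

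Smchd1 itself was at 271, 260 and 232 CPM in wild type and at 30.3, 31.1 and 27.9 CPM in null libraries, where CPM from here on is scaled by TMM (a library size correction for composition). Total counts were 18608881 to 23253367 per library. Wild type replicate 3 stood apart: a single gene record held 44.6% of its counts (2.11% to 5.90% elsewhere), and its effective depth was 10.1 M against 21.3 to 25.8 M. The sample names are NPC_RNA_113 and NPC_RNA_114 for wild type replicates 1 and 2, and run from NPC_RNA_11 to NPC_RNA_14 over the null libraries and wild type replicate 3. Leaving out wild type replicate 3 therefore leaves a comparison in which genotype and name range cannot be told apart. With the name range as a term in a model, the genotype difference rests on wild type replicate 3 alone against the null libraries. The 10 neural stem cell markers summed to 5046 to 5598 CPM in wild type and to 5062 to 5204 CPM in null libraries, with 0 of 10 called. Most of that sum was Vim, Fabp7 and Nes. Null libraries were all below in 1 of the 10 and all above in 0. That gene was Hes1, at 45.0, 48.0 and 38.2 CPM in wild type and 31.1, 36.2 and 33.5 CPM in null libraries. The 6 oligodendrocyte lineage markers, 0 of 6 called, summed to 484, 467 and 706 CPM in wild type and to 621 to 655 CPM in null libraries. Most of that sum was Olig2, at 465, 446 and 527 CPM in wild type and 488 to 510 CPM in null libraries. Pdgfra was at 17.1, 18.3 and 167.4 CPM in wild type and 112.6, 128.2 and 137.5 CPM in null libraries. Wild type replicates 1 and 2 were thus far below all other libraries in Pdgfra, more than the sum shows. The log2 fold change of Pdgfra was 0.96, and 2.83 without wild type replicate 3. The 5 astrocyte markers, 0 of 5 called, summed to 630, 672 and 925 CPM in wild type and to 820 to 851 CPM in null libraries. In both lists wild type replicate 3 was above every null library and wild type replicates 1 and 2 below them. Neuron markers, 0 of 6 called, summed to 1092 to 1127 CPM in wild type and 993 to 1026 CPM in null libraries. Nearly all of that sum was Map2, at 1101, 1094 and 1058 CPM in wild type and 967, 978 and 999 CPM in null libraries, and the median log2 fold change of the list was -0.01. Microglia, endothelial and fibroblast lists each summed to at most 2.78 CPM in any library, with Tyrobp and Cdh5 at 0. The part of these markers in the results on zinc finger genes was not tested.

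One of the 313 members, Zfp976, was called higher in the null cells and 0 were called lower, with edgeR's quasi-likelihood test and Benjamini-Hochberg adjustment over all 14207 tested genes (adjusted p under 0.05). Over all tested genes, 0.577% were called, 0.507% higher and 0.0704% lower. At an unadjusted p under 0.05, 46 members were higher (14.7%, against 9.54% of tested genes) and 17 lower (5.43%, against 9.05%). DESeq2 called 5 members higher (Zfp976, Zfp677, Zfp951, Zfp808 and Zfp346) and 1 lower (Zfp189). The median log2 fold change, null minus wild type, was 0.03 over the members and 0.00 over all tested genes. Scaling by library totals in place of TMM put the median of all tested genes at 0.32 and that of the members at 0.35, so fold changes are given relative to other genes. Changes were small: the median absolute log2 fold change was 0.118 in the members and 0.146 in all tested genes, and the median standard error (SE) of a member was 0.108. An absolute log2 fold change over 0.5 was reached by 18 members (5.75%, against 11.6% of tested genes), and all 18 were positive. The 18 include Zfp677 and Zfp951, whose wild type means were under 2 CPM. Tested genes include genes under mean CPM 2, which the members do not, so these medians and shares are not from like sets.

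Zfp976 encodes a predicted KRAB zinc finger protein, with 18 matches to a Cys2His2 finger pattern in its translated sequence. It lies at chr7:42609514-42644267 (mm10). Its level was 3.57, 3.33 and 5.66 CPM in wild type and 13.6, 11.7 and 10.7 CPM in null libraries. Every null library was above every wild type library, and wild type replicate 3 was the nearest to them. The log2 fold change was 1.58 ± 0.20 (SE, n = 3 per group), a 2.99-fold higher level, with an edgeR adjusted p of 0.00999. The call held without wild type replicate 3 (1.79, adjusted p = 7.3e-08) and with the sample name range as a term in the model (1.08, adjusted p = 0.0139). The call was lost when any of the 5 libraries other than wild type replicate 3 was left out. Log2 fold changes were then 1.44 to 1.64 (edgeR adjusted p = 0.0530 to 0.114). A share of 29.1% of the 50-base windows of its transcripts also occurs in transcripts of other genes, most of all Zfp975, so part of its count depends on how the authors treated reads with several matches.

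Zfp975 is the neighbouring KRAB zinc finger gene, at chr7:42660105-42692810, and was picked for its position after its values were seen. Its level was 4.73, 5.76 and 6.05 CPM in wild type and 7.85, 8.11 and 7.80 CPM in null libraries. The groups did not overlap, but at a log2 fold change of 0.54 ± 0.14 (SE, n = 3 per group) the adjusted p of edgeR was 0.137. It shares 41.8% of its windows with other genes, most of all Zfp976.

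The promoters of these neighbours are shown with those of Zfp677, which had the next largest log2 fold change, and Zfp189, which had the most negative. They are the 250 bases before the start given in the RefSeq promoter table (GRCm38.p6, gene strand, 5′ to 3′), with each CG dinucleotide in capitals since DNA methylation falls on CG. The stretches are chr7:42642605-42642854 (minus strand) for Zfp976, chr7:42692811-42692968 (minus strand) for Zfp975, chr17:21383498-21383706 (plus strand) for Zfp677 and chr4:49520926-49521175 (plus strand) for Zfp189. Bases that lie inside the span of a longer gene model were left out for Zfp975 and Zfp677. The Zfp976 window is shown whole, although all of it lies inside the span given above, whose end belongs to a longer model.
Zfp976: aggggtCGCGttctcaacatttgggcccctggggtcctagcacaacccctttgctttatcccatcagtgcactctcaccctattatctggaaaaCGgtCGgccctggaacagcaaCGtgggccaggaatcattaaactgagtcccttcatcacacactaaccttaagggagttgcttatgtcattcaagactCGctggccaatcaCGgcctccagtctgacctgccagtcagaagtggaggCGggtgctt
Zfp975: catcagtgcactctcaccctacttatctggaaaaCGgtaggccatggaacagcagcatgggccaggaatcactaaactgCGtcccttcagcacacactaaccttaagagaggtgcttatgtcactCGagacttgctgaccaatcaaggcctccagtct
Zfp677: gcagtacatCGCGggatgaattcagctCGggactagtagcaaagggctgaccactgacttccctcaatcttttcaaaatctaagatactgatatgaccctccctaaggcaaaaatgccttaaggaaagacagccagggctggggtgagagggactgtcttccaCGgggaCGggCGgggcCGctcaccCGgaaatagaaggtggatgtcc
Zfp189: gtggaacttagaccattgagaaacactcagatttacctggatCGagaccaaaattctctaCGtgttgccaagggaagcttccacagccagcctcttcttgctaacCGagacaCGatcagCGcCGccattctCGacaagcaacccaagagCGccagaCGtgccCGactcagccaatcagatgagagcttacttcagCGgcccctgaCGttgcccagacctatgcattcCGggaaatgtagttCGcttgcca
Zfp976 has 8 CG in its full 250-base window, Zfp975 has 7, Zfp677 has 10 and Zfp189 has 14. As many or more CG are found in 81.6%, 84.6%, 75.2% and 60.3% of the 10639 tested genes with a promoter in the table, in that order. In a local alignment the full windows of Zfp976 and Zfp975 matched at 175 of 190 columns (92.1%). Of the 313 members, 261 had a promoter in the table. Their median was 11 CG per window, against 16 in tested genes, and their median GC content was 54%, against 60.4%. CCAAT, searched on both strands, was found in 48.3% of members' windows and 37.0% of tested genes' windows. GGGCGG was found in 41.4% of members' windows against 60.3%, and TATAAA in 6.51% against 6.32%. These matches are descriptions of letters, not of bound sites.

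Of the members that were not called, Zfp677 was at 0.891, 0.981 and 1.79 CPM in wild type and 2.35, 3.23 and 2.85 CPM in null libraries. The groups did not overlap, and the log2 fold change of 1.31 ± 0.29 (SE, n = 3 per group) had an edgeR adjusted p of 0.104. Zfp677 encodes a KRAB zinc finger protein with 16 finger matches and shares almost no transcript windows with other genes. Zfp951 was at 2.17, 1.53 and 2.08 CPM in wild type and 3.71, 3.37 and 4.15 CPM in null libraries. Its wild type libraries lay close together and below every null library, with a log2 fold change of 0.97 ± 0.20 (SE, n = 3 per group) and an edgeR adjusted p of 0.0968. Zfp677 and Zfp951 had wild type means under 2 CPM and passed the threshold through their null libraries. Their selection thus favoured a rise, and their fold changes are a description only.

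Zfp641, which has no KRAB-like match, was at 3.84, 4.35 and 9.43 CPM in wild type and 9.58, 10.6 and 10.97 CPM in null libraries. Wild type replicate 3 was within 0.2 CPM of the lowest null library, while wild type replicates 1 and 2 lay far below. The log2 fold change was 0.92 ± 0.31 (SE, n = 3 per group, edgeR adjusted p = 0.209). With the sample name range as a term it was 0.14 (adjusted p = 0.789), and without wild type replicate 3 it was 1.34 (adjusted p = 7.6e-07). Zfp612 also had wild type replicate 3 well above wild type replicates 1 and 2, with 2.87, 3.16 and 6.25 CPM in wild type and 7.71, 5.95 and 5.84 CPM in null libraries. Here the groups overlapped, and the log2 fold change was 0.75 ± 0.28 (SE, n = 3 per group; edgeR adjusted p = 0.232).

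Zfp808 and Zfp934 are a pair of KRAB zinc finger genes on chromosome 13 that share 46.4% and 41.6% of their transcript windows with other genes, each most of all with the other. Zfp808 was at 4.61, 5.33 and 6.05 CPM in wild type and 8.97, 8.43 and 9.54 CPM in null libraries. Its adjusted p, 0.0621 by edgeR at a log2 fold change of 0.77 ± 0.14 (SE, n = 3 per group), was the smallest among members that were not called. Zfp934 was at 3.91, 4.39 and 5.85 CPM in wild type and 7.47, 6.84 and 7.09 CPM in null libraries, a log2 fold change of 0.63 ± 0.17. The 2 genes cannot be counted as independent, since reads from one can match the other. Zfp52 and Zfp950, both KRAB-like, had log2 fold changes of 0.64 ± 0.20 and 0.63 ± 0.17, with groups that did not overlap and edgeR adjusted p of 0.192 and 0.145.

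**Figure D1:**
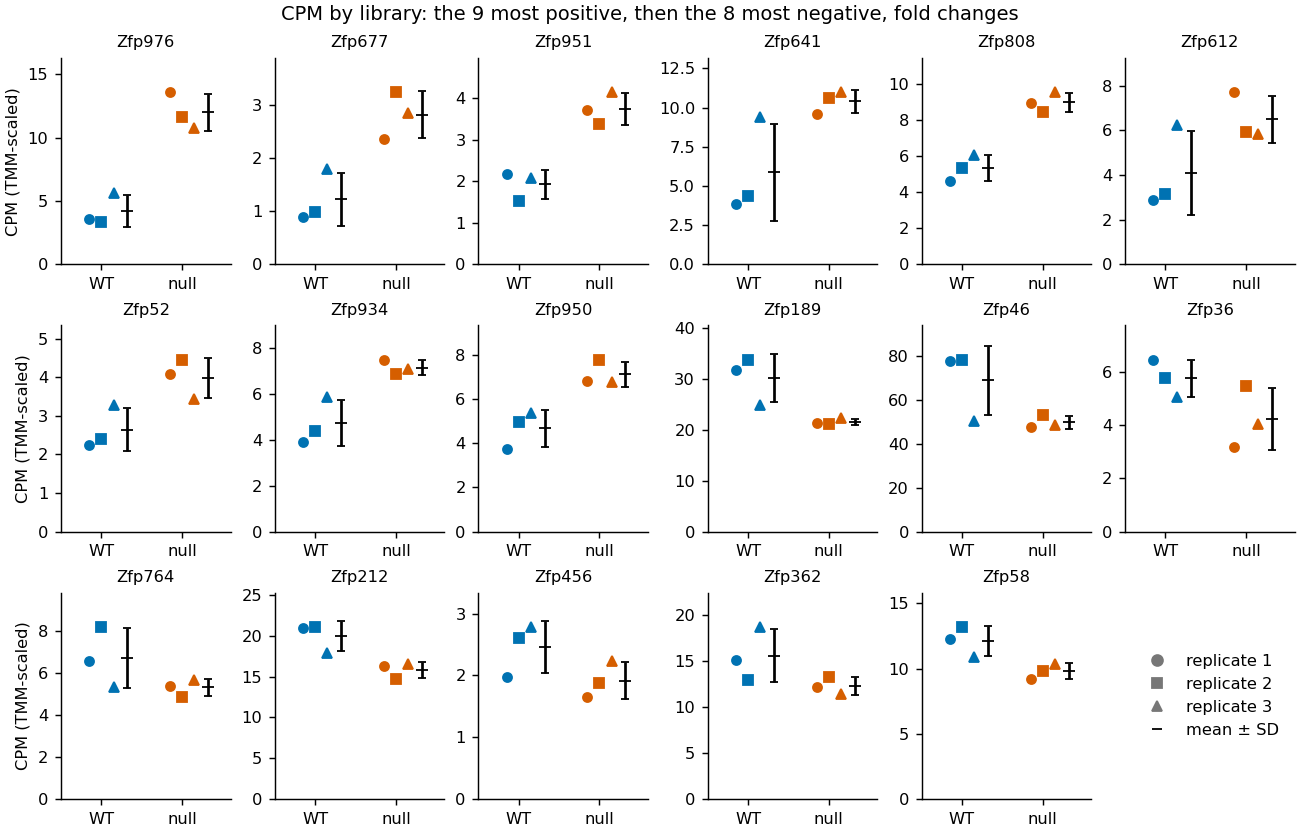
CPM (TMM-scaled) of single members in each of the 3 wild type (blue) and 3 null (orange) libraries, with symbols for the replicate number and bars for mean ± SD. Zfp976 was between 3.33 and 5.66 CPM in wild type and between 10.7 and 13.6 CPM in null libraries. In Zfp641, Zfp612 and Zfp46, wild type replicate 3 (triangle) sits near the null libraries.

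No member was called lower with edgeR, and no negative log2 fold change reached 0.5 in size. Zfp189, with 16 finger matches and no KRAB-like match, was at 31.9, 33.8 and 24.9 CPM in wild type and 21.4, 21.2 and 22.3 CPM in null libraries. The null libraries were all below the wild type libraries, with a log2 fold change of -0.49 ± 0.11 (SE, n = 3 per group) and an edgeR adjusted p of 0.117. Zfp46 was at 78.0, 78.5 and 50.7 CPM in wild type and 47.8, 53.3 and 48.5 CPM in null libraries. Wild type replicate 3 lay among the null libraries: the log2 fold change was -0.48 ± 0.16, and -0.02 with the sample name range as a term. The next most negative were Zfp36 at -0.46 ± 0.21, Zfp764 at -0.36 ± 0.17, Zfp212 at -0.34 ± 0.10, Zfp456 at -0.33 ± 0.22, Zfp362 at -0.33 ± 0.14 and Zfp58 at -0.31 ± 0.11 (log2 fold change ± SE). Of these 6, only Zfp212 and Zfp58 had groups that did not overlap, and edgeR adjusted p values were 0.169 to 0.425. Zfp456 and Zfp58 share 65.3% and 50.2% of their transcript windows with other genes.

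A count that uses no test, taken on TMM-scaled CPM, gave an unequal split. In 55 members (17.6%) every null library was above every wild type library, against 11.4% of all tested genes. In 20 members (6.39%) every null library was below, against 10.6% of tested genes. Without wild type replicate 3, the counts were 110 above (35.1%, against 31.1% of tested genes) and 72 below (23.0%, against 30.1%). The edgeR test without that library called 72 members higher (23.0%, against 19.7% of tested genes) and 38 lower (12.1%, against 19.4%). With the sample name range as a term, only wild type replicate 3 stands for wild type. The median log2 fold change was then 0.01 in members and 0.00 in tested genes. The threshold on mean CPM used the null libraries too: 5 members had a wild type mean under 2 CPM (Zfp677, Zfp951, Zfp300, Zfp78 and Zfp964) and 1 had such a null mean (Zfp456). Among the 269 members with a mean CPM of 5 or more, 44 were above (16.4%) and 20 below (7.43%). Tested genes at 5 to 10 CPM were above in 17.3% and below in 6.70%. Those at 50 CPM or more were above in 4.95% and below in 15.8%, with the ranges between them in between. Whether the members differ from other genes in this split was not tested.

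The split differed in size with the presence of a KRAB-like sequence. A pattern for the KRAB A box, searched in translated GENCODE coding sequences, matched 159 members, did not match 150, and 4 had no translated sequence. The pattern was widened with fold changes in view, so the split by class is a description only. Among the 159 KRAB-like members, 107 had a positive and 52 a negative log2 fold change, with a median of 0.06. Their null libraries were all above in 37 members (23.3%) and all below in 4 (2.52%). Among the 150 members with no match, 75 log2 fold changes were positive and 75 negative, the median was 0.00, and null libraries were all above in 18 (12%) and all below in 16 (10.7%). Over all tested genes the shares were 11.4% above and 10.6% below. The 4 KRAB-like members below, named after their values were seen, were Zfp12, Zfp68, Zfp267 and Zfp790. Without wild type replicate 3, 68 KRAB-like members were above (42.8%) and 28 below (17.6%). Of those with no match, 38 were above (25.3%) and 44 below (29.3%). Over all tested genes, the shares in that setting were 31.1% above and 30.1% below. With the sample name range as a term, the median was 0.05 in the KRAB-like members and -0.02 in those with no match. With 1 library left out in turn, the KRAB-like median was 0.04 to 0.10. A looser pattern matched 177 members, of which 41 were above and 6 below. The difference between the classes was not tested.

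**Figure D2:**
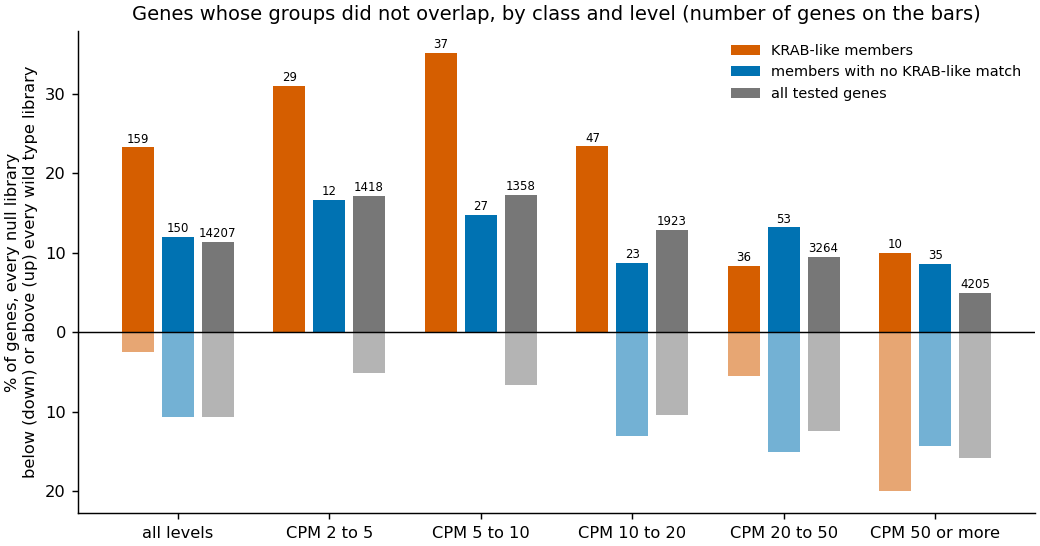
Percent of genes in which every null library was above (bars up) or below (bars down) every wild type library, for KRAB-like members, members with no KRAB-like match and all tested genes, at all levels and by range of mean CPM, with the number of genes on each bar. KRAB-like members reach 35.1% upward at 5 to 10 CPM, where neither class of members has a bar downward. Genes at 2 to 5 CPM sit at the threshold that selected the members.

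Level and class went together, and level alone went with the fold change. KRAB-like members had a median mean CPM of 11.9, against 25.5 for those with no match and 22.3 for all tested genes. In tested genes of 2 to 5 mean CPM the median log2 fold change was 0.17, and it was 0.10, 0.04, -0.02 and -0.07 at 5 to 10, 10 to 20, 20 to 50, and 50 or more. Members followed nearly the same steps, with medians of 0.23, 0.10, 0.03, 0.01 and -0.06. With the sample name range as a term, the medians at 2 to 5 CPM were 0.03 in members and -0.03 in tested genes. Mean CPM is the value that selected the members, so their order by level is a description only.

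The shares of KRAB-like members are given by range above 5 CPM, since those below it sit at the threshold that selected the members. At 5 to 10 CPM, null libraries were all above in 13 of 37 KRAB-like members (35.1%, against 17.3% of tested genes) and all below in 0 (against 6.70%). At 10 to 20 CPM they were all above in 11 of 47 (23.4%, against 12.8%) and all below in 0 (against 10.4%). At 20 to 50 CPM they were all above in 3 of 36 (8.33%, against 9.53%) and all below in 2 (5.56%, against 12.5%). At 50 CPM or more they were all above in 1 of 10 (10%, against 4.95%) and all below in 2 (20%, against 15.8%). From 5 to 20 CPM, KRAB-like members were thus more often above and less often below than tested genes. At 20 CPM or more the counts of KRAB-like members are too small to read a direction. Tested genes themselves went from more often above at 5 to 20 CPM to more often below at 20 CPM or more. These differences were not tested.

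**Figure D3:**
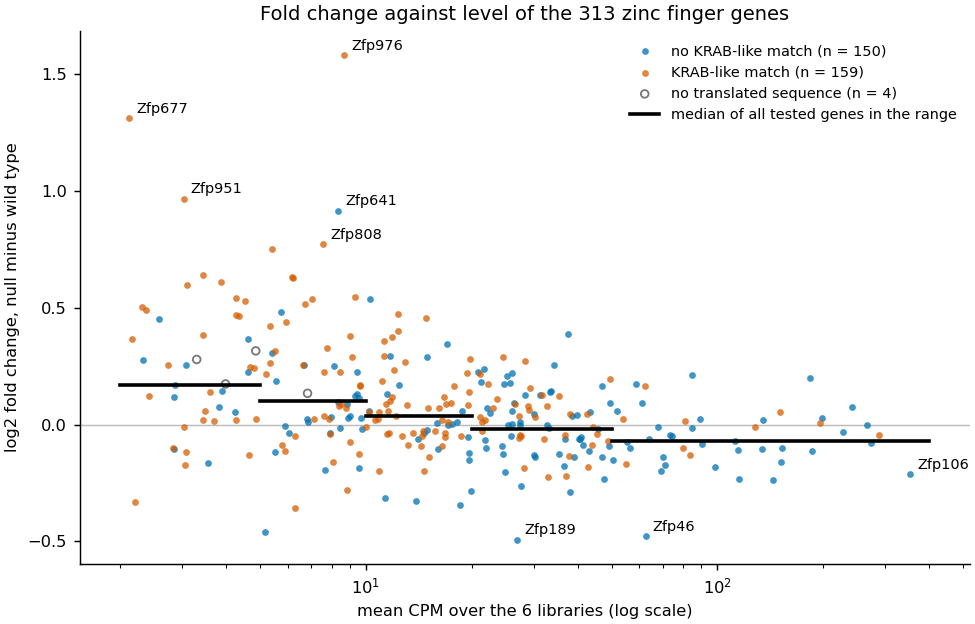
Log2 fold change, null minus wild type, against mean CPM over the 6 libraries (log axis) for the 313 members, coloured by KRAB-like match, with black lines for the median of all tested genes in 5 ranges of mean CPM. Positive values over 0.5 are found under 11 CPM, and the line for tested genes goes from 0.17 at 2 to 5 CPM to -0.07 at 50 CPM or more.

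By library, the median over KRAB-like members of the log2 ratio to the mean of the 6 libraries was -0.09, -0.02 and -0.02 in wild type and 0.04, 0.05 and 0.02 in null libraries. The groups did not overlap, and wild type replicate 1 lay farthest from the others. In members with no match the medians were -0.01, -0.01 and 0.01 in wild type and -0.00, -0.01 and -0.00 in null libraries. Those groups overlapped. In all tested genes the medians were -0.0075, -0.0069 and -0.0043 in wild type and -0.0033, -0.0032 and -0.0026 in null libraries. The groups of tested genes did not overlap either, so a lack of overlap was not particular to KRAB-like members. The medians of tested genes lay much closer together than those of KRAB-like members.

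**Figure D4:**
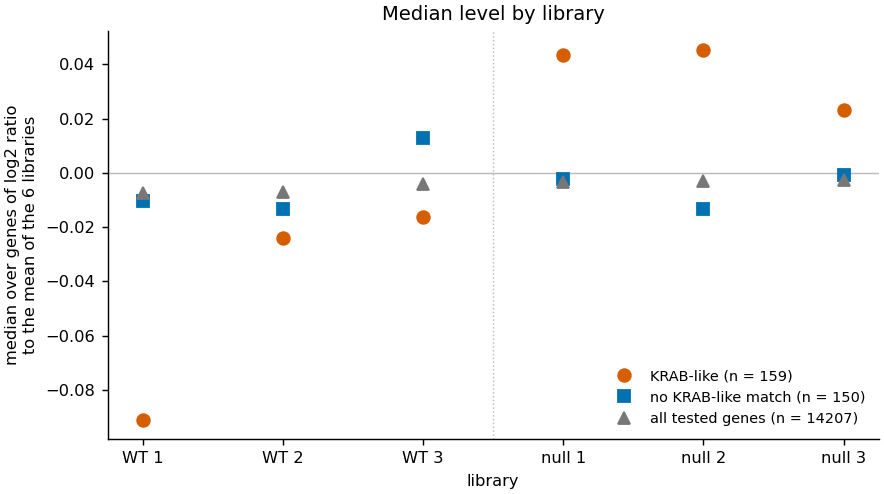
Median over genes of the log2 ratio of each library to the mean of the 6 libraries (0.5 CPM added), for KRAB-like members, members with no KRAB-like match and all tested genes. KRAB-like members run from -0.09 to -0.02 in wild type and from 0.02 to 0.05 in null libraries, and all tested genes stay within 0.01 of 0.

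Of the 309 members with a value, 109 shared none of their 50-base transcript windows with another gene and 51 shared at least 20%. Among the 103 KRAB-like members sharing under 5%, null libraries were all above in 22 (21.4%) and all below in 4 (3.88%), with a median log2 fold change of 0.05. Among the 56 that shared at least 5%, 15 were above (26.8%), 0 were below, and the median was 0.09. Of the 110 members with no match that shared under 5%, 15 were above (13.6%) and 12 below (10.9%). All tested genes were above in 11.4% and below in 10.6%. The members had a median of 11 finger matches, up to 36, and 183 had at least 10, while 6 had none. Zfp36, of the CCCH type, was among those with none.

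The members lie on 20 chromosomes, with 80 on chromosome 7, 40 on chromosome 17, 27 on chromosome 13 and 23 on chromosome 8. Genes whose starts were within 500 kb were chained: 210 members fell into 45 clusters and 103 stood alone. In clusters, 42 members had all null libraries above (20%) and 11 below (5.24%), against 13 (12.6%) and 9 (8.74%) of those standing alone, beside 11.4% and 10.6% of all tested genes. The largest cluster, at chr17:21008941-23599755 (Zfp160 to Zfp13), held 22 members. Of these, 18 had a positive log2 fold change, the median was 0.09, and null libraries were all above in 9 and all below in 0. Zfp677 and Zfp52 belong to it and are among the 9. Zfp677 had a wild type mean under 2 CPM, so its selection favoured a rise. On chromosome 13, the cluster from Zfp712 to Zfp273 held 16 members, of which 6 were positive, with a median of -0.06. On chromosome 7, the cluster from Zfp84 to Zfp146 held 15 members, of which 4 were positive, with a median of -0.07. In each of these 2 clusters 1 member was above (Zfp493 and Zfp27) and 1 below (Zfp58 and Zfp790). None of the 11 clusters of 6 or more held a called member, and differences between clusters were not tested.

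**Figure D5:**
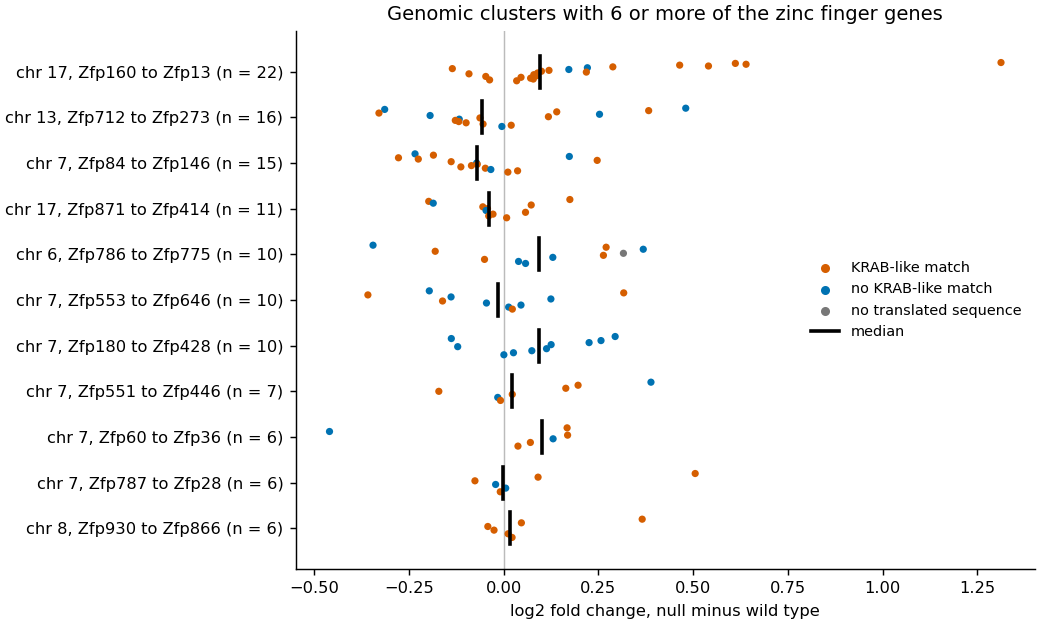
Log2 fold change, null minus wild type, of each member (points, coloured by KRAB-like match) in the 11 genomic clusters with 6 or more members, with black bars for the cluster median. The chromosome 17 cluster from Zfp160 to Zfp13 has 18 of 22 points above 0, and the chromosome 7 cluster from Zfp84 to Zfp146 has 4 of 15.

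The name-based exclusion did not remove every member on chromosome 4, where 12 members lie. Zfp984 (chr4:147753974-147812229) and Zfp933 (chr4:147822986-147849126), named for their position, are next to the excluded Zfp979 (chr4:147611936-147642508). Zfp984 was at 14.9, 15.5 and 15.7 CPM in wild type and 15.6, 15.4 and 14.1 CPM in null libraries, and its groups overlapped. Zfp933 was at 21.6, 21.3 and 22.9 CPM in wild type and 24.1, 24.0 and 22.9 CPM in null libraries, with an edgeR adjusted p of 0.430. The 4 excluded genes had log2 fold changes of 1.12 to 1.66 and were all called higher. On the X chromosome, null libraries were all above in 2 of 5 members (Zfp182 and Zfp300) and all below in 0. The shares over all tested genes were 11.4% and 10.6%, and 0 of the 5 members were called. Zfp300 had a wild type mean under 2 CPM, so its selection favoured a rise and the count is a description only.

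Genes of known function were next taken by role. Zfp57 and Zfp445 keep DNA methylation at imprinting control regions, and Zfp568 represses a placental promoter of Igf2. Zfp57 was at 9.92, 13.2 and 12.9 CPM in wild type and 16.3, 18.4 and 14.4 CPM in null libraries. The groups did not overlap, and the log2 fold change was 0.45 ± 0.14 (SE, n = 3 per group; edgeR adjusted p = 0.189). Zfp445 was at 133 to 152 CPM in wild type and 140 to 151 CPM in null libraries, which overlapped. Zfp568 was at 36.6, 39.3 and 24.1 CPM in wild type and 29.6, 29.3 and 27.8 CPM in null libraries, with wild type replicate 3 the lowest of all. Its log2 fold change was -0.23 ± 0.16 and turned to 0.26 with the sample name range as a term.

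Zfp809, Zfp932 and Zfp708 bind retroelements and repress them. The fourth gene of that list, Zfp600, was not a member. Zfp932 was at 2.33, 2.43 and 2.18 CPM in wild type and 4.04, 3.51 and 3.03 CPM in null libraries. Its groups did not overlap, at a log2 fold change of 0.60 ± 0.18 (SE, n = 3 per group; edgeR adjusted p = 0.179), and 45.2% of its windows are shared, most of all with Gm15446. Zfp809 was at 9.26 to 10.2 CPM in wild type and 9.27 to 10.7 CPM in null libraries, and Zfp708 at 5.26 to 5.93 and 4.64 to 5.43 CPM. Both overlapped between groups, and all windows of Zfp708 (100%) also occur in transcripts of other genes, most of all Gm28557.

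The list of neural development genes held 12 names, of which 8 were members, and 0 of the 8 were called. Zfp462, a chromatin-associated zinc finger protein, was at 161, 142 and 197 CPM in wild type and 208, 186 and 180 CPM in null libraries. Its groups overlapped, and its log2 fold change was 0.20 ± 0.12. Zfp521, a regulator of early neural differentiation, was at 42.4, 35.9 and 33.1 CPM in wild type and 35.2, 32.1 and 31.7 CPM in null libraries, a log2 fold change of -0.18 ± 0.10 with overlapping groups. Zfp292 was at 142, 132 and 127 CPM in wild type and 126, 125 and 122 CPM in null libraries. Its null libraries were all below, by a log2 fold change of -0.10 ± 0.06 (edgeR adjusted p = 0.390). Zfp536, a negative regulator of neuronal differentiation, was at 8.64, 5.54 and 16.9 CPM in wild type and 9.63, 9.37 and 10.3 CPM in null libraries, with wild type replicate 3 above and wild type replicates 1 and 2 below all null libraries. Zfp423, Zfp703, Zfp335 and Zfp24 had fitted differences smaller than their SE.

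Of 6 genes of stem cells and general transcription, 5 were members, and all 5 had negative log2 fold changes between -0.29 and -0.05, although with library totals all 5 turned positive along with the median of all genes. Zfp217 was at 41.7, 43.0 and 36.0 CPM in wild type and 30.1, 35.1 and 34.0 CPM in null libraries, with null libraries all below and a log2 fold change of -0.29 ± 0.09 (SE, n = 3 per group; edgeR adjusted p = 0.194). Zfp281 was at 108, 110 and 81.7 CPM in wild type and 90.2, 90.6 and 84.1 CPM in null libraries, a log2 fold change of -0.18 ± 0.11. Zfp148 was at 194, 192 and 171 CPM in wild type and 177, 169 and 168 CPM in null libraries, a log2 fold change of -0.11 ± 0.07. In all 5 genes, wild type replicate 3 was below wild type replicates 1 and 2. With the sample name range as a term, the median of the 5 was 0.04 in place of -0.11.

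All 12 genes that act on RNA, translation or ubiquitin were members, with 6 log2 fold changes above 0 and 6 below, and 0 called. Zfp346, which binds double-stranded RNA, was at 7.60, 7.29 and 9.43 CPM in wild type and 12.2, 11.7 and 11.01 CPM in null libraries. Its groups did not overlap, and the log2 fold change was 0.54 ± 0.13 (SE, n = 3 per group; edgeR adjusted p = 0.122). Zfp36, the mRNA-destabilising tristetraprolin, was at 6.47, 5.80 and 5.06 CPM in wild type and 3.19, 5.48 and 4.06 CPM in null libraries, which overlapped. Zfp598, a sensor of collided ribosomes, had a log2 fold change of 0.14 ± 0.09, and Zfp326, a splicing regulator, one of 0.14 ± 0.09. The E3 ubiquitin ligase gene Zfp91 had one of -0.16 ± 0.09, and Zfp830 one of -0.26 ± 0.10. Groups overlapped in these 4 genes.

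The 6 members with the highest mean CPM by library total were Zfp106, Zfp266, Zfp704, Zfp207, Zfp638 and Zfp664, from 352 to 227. Per kb of gene length, mean CPM ran from 0.324 to 69.1 over the members, with a median of 4.65, and was 69.1 for Zfp207, 53.8 for Zfp664, 43.8 for Zfp266, 37.2 for Zfp106, 36.1 for Zfp638 and 19.2 for Zfp704. Zfp207, a spindle assembly and splicing factor, was at 257, 255 and 261 CPM in wild type and 259, 259 and 253 CPM in null libraries, and its groups overlapped. Zfp106, an RNA-binding protein, was at 381, 387 and 322 CPM in wild type and 325, 314 and 303 CPM in null libraries, a log2 fold change of -0.21 ± 0.08 (SE, n = 3 per group; edgeR adjusted p = 0.239). Zfp638 had a log2 fold change of 0.08 ± 0.07 with overlapping groups, and Zfp704 one of -0.08 ± 0.06 with null libraries all below.

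Of 21 cofactors of KRAB proteins and of heterochromatin listed, 20 were found in the tables, and 0 of 20 were called. Their median log2 fold change was -0.08. Null libraries were all above in 2 of 20 (Lrif1 and Morc2a) and all below in 0, beside 11.4% and 10.6% of all tested genes. Trim28 was at 628, 592 and 453 CPM in wild type and 498, 468 and 519 CPM in null libraries, which overlapped. Lrif1, which binds Smchd1 and heterochromatin protein 1, was at 8.22, 9.42 and 10.7 CPM in wild type and 14.8, 15.6 and 14.7 CPM in null libraries. Its log2 fold change of 0.68 ± 0.12 (SE, n = 3 per group) had an edgeR adjusted p of 0.0505.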

How the data were processed

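Deposited values are raw counts per Entrez gene. Per the submitters' processing notes, featureCounts, limma 3.22.0, edgeR 3.8.2 and CASAVA 1.8.2 were used with mm10. The sources used here do not name the aligner, the annotation or the treatment of reads with several matches. The 27179 records were the same in all 6 tables, and 25275 (93.0%) matched a symbol in the RefSeq GRCm38.p6 table. The members and lists were chosen with earlier results of these data known. Counts were filtered (filterByExpr), TMM-scaled and fitted with edgeR 4.0.16 (R 4.3.3, robust quasi-likelihood, genotype only, checked on simulated counts). Alternatives used DESeq2 1.42.0, limma 3.58.1, other scalings, filters, designs and left-out libraries. Effective depths were 10.1 to 25.8 M. Precision is limited by 3 libraries per group. Every pair of replicates differed by more than counting noise (mean chi-square per gene of at least 7.79).

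Named members are those called, the 8 largest positive and 8 largest negative log2 fold changes not called, the 6 with the highest mean CPM, the 3 on each side of the threshold, and the role lists. Zfp975, Zfp984 and Zfp933 were added for position. Log2 fold changes of named members are given where they exceed their SE. Shared sequence was counted in GENCODE M21 transcripts. The KRAB pattern was widened after a first version missed mouse variants, with fold changes in view.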

Additional observations from a re-analysis of the deposited data

How the results depend on the processing

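Of 20 alternatives, those that moved the calls are given here. Members called higher numbered 5 with DESeq2, 2 with limma-voom, 72 with its sample quality weights, 5 with unscaled library totals, 4 with no filter, 2 with thinned counts and 0 to 72 with 1 library left out. Only leaving out wild type replicate 3 gave more than 0 there. Members called lower numbered 1 with DESeq2, 27 with quality weights, 1 with no filter, 2 with sample names 11 to 14 only, and 0 to 38 with 1 library left out. Over all tested genes, 82 were called, against 398 with DESeq2, 127 with limma-voom, 5168 with quality weights, 457 with library totals, 222 with no filter, 28 with a stricter filter, 186 with the name range as a term, 376 with sample names 11 to 14 only and 30 to 5676 with 1 library left out. The cause was not tested. The name range as a term and names 11 to 14 only are not separate checks. In both, the genotype difference rests on wild type replicate 3 against the null libraries. The members' median log2 fold change was 0.058 with quality weights, 0.066 with upper quartile scaling, 0.35 with library totals and 0.013 with sample names 11 to 14 only. Library totals moved the median of all genes to 0.32, and the members' median stood 0.03 above it. As alternatives chosen after seeing the data, counts of members with groups that did not overlap were taken without wild type replicate 3. They were 110 above and 72 below, with 68 and 28 among KRAB-like members and 38 and 44 among those with no match. Over all tested genes, 31.1% were above and 30.1% below in that setting. With members of 5 CPM or more only, the counts were 44 and 20, with 28 and 4 among KRAB-like members and 16 and 16 among those with no match. Shares of tested genes went from 17.3% above and 6.70% below at 5 to 10 CPM to 4.95% and 15.8% at 50 CPM or more.

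Among named members whose log2 fold change exceeded its SE, signs turned with library totals in Zfp456 (0.0014), Zfp362 (0.036), Zfp106 (0.069), Zfp704 (0.24), Zfp568 (0.022), Zfp521 (0.11), Zfp292 (0.20), Zfp281 (0.084), Zfp148 (0.18), Zfp217 (0.00055), Zfp91 (0.12) and Zfp830 (0.023). With the name range as a term, and with names 11 to 14 only, signs turned in Zfp638 (-0.025 and -0.026), Zfp568 (0.26 and 0.26), Zfp462 (-0.044 and -0.045), Zfp281 (0.11 and 0.11), Zfp148 (0.0061 and 0.0049) and Zfp91 (0.041 and 0.040).

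With a replicate block, 54 tested genes were called, 1 member higher (Zfp976, log2 fold change 1.58, adjusted p = 0.0484) and 0 lower. Same-numbered libraries did not deviate together (correlations of -0.01, 0.03 and -0.04), and the labels give no pairing.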
